A study of Homo sapiens with 14 samples.

Results

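The genes that encode the subunits particular to RNA polymerase I (Pol I) were described after exposure of MDA-MB-231 cells to RBI2 or CX-5461. MDA-MB-231 is a line of mesenchymal, hormone receptor-negative human breast cancer in wide laboratory use. The 8 genes, POLR1A to POLR1H, were found by symbol from the subunit nomenclature, a rule that uses no measured value, out of 60876 annotated genes with a transcript in the deposited tables. All 8 passed the filter on low counts, as did 15426 genes in all. Messenger RNA was sequenced from 14 libraries in 7 groups of 2. The control cells carried no compound according to the labels. The study's methods call these controls untreated, whereas its results speak of a DMSO control. The other 6 groups received 5 µM of RBI2, a ribosome biogenesis inhibitor, or 5 µM of CX-5461, an inhibitor of Pol I transcription that served as the positive control, and were labelled 10, 30 or 120 min. All groups share the single parental line, and the labels do not say whether the replicates came from separate cultures, so the p-values measure the spread between these samples, which may be technical. The times are those of the sample labels. The time marks in the names of the deposited tables do not match those labels, so the labels only name groups here and no course over time was fitted.

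Pol I transcribes the tandem ribosomal DNA genes in the nucleolus into the long precursor (pre-rRNA) from which most of the ribosome's RNAs are cut. Its catalytic core is built from RPA194 (POLR1A) and RPA135 (POLR1B), held together by the AC40 (POLR1C) and AC19 (POLR1D) assembly subunits that Pol III also uses, and it carries RPA43 (POLR1F) in the stalk that contacts the initiation factor RRN3, RPA12 (POLR1H) for transcript cleavage, and the PAF53 (POLR1E) and PAF49 (POLR1G) heterodimer. RPA194 is the subunit known to be degraded when cells meet some small molecules that act on Pol I. That is a protein response, and mRNA levels as measured here carry no information on protein.

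In the GRCh38 build (GENCODE 44), POLR1A (ENSG00000068654) spans chr2:86020216-86106155 on the minus strand and POLR1B (ENSG00000125630) spans chr2:112541915-112579818 on the plus strand. POLR1C (ENSG00000171453) lies at chr6:43509702-43562419 on the plus strand and POLR1D (ENSG00000186184) at chr13:27620742-27744237 on the plus strand. The heterodimer genes are POLR1E (ENSG00000137054), at chr9:37485948-37503697 on the plus strand, and POLR1G (ENSG00000117877, formerly CD3EAP), at chr19:45406644-45410737 on the plus strand. POLR1F (ENSG00000105849, formerly TWISTNB) spans chr7:19695461-19709037 on the minus strand, and POLR1H (ENSG00000066379, formerly ZNRD1) spans chr6:30058899-30064909 on the plus strand. Several members overlap genes on the opposite strand that were also expressed. POLR1C overlaps XPO5 (mean of 2760 estimated reads per library) and YIPF3 (1230 reads), POLR1G overlaps ERCC1 (1590 reads), and POLR1H overlaps POLR1HASP (35.1 reads). The library kit marks strand, but the strand setting of the quantification is not given in the sources used here, so shared reads of these pairs are a limit on POLR1C, POLR1G and POLR1H.

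The promoters of POLR1A, POLR1G and POLR1B are shown because these genes carry the differences described below. RefSeq windows (GRCh38.p14) that run from 250 bases before to 50 bases after each annotated start were found for 7 of the 8 members, with 9 entries in all, and not for POLR1E. They were searched on both strands for the E-box (CACGTG), the CRE (TGACGTCA), the ETS site (CCGGAAG), the GC box (GGGCGG), the TATA box (TATAAA) and the YY1 site (AAGATGGC), and capitals mark the matches. The POLR1A window (chr2:86105837-86106136, minus strand) held none of these motifs. The POLR1G window (chr19:45406394-45406693, plus strand) held an E-box 12 bases before the start, which reads the same on both strands. The POLR1B windows (chr2:112541786-112542085 and chr2:112542215-112542514, plus strand) each held an ETS site and at least 1 GC box.
POLR1A: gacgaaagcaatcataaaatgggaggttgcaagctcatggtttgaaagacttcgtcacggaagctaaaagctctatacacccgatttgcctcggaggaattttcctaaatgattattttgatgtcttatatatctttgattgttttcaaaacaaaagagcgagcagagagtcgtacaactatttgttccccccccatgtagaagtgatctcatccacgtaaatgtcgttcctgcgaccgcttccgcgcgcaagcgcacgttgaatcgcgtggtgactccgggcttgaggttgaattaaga
POLR1G: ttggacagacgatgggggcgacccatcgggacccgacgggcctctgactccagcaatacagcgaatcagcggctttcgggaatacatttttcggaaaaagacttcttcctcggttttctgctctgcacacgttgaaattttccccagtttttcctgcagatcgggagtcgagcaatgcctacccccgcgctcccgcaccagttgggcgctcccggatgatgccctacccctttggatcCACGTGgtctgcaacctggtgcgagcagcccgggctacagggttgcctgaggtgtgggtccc
POLR1B, entry 1: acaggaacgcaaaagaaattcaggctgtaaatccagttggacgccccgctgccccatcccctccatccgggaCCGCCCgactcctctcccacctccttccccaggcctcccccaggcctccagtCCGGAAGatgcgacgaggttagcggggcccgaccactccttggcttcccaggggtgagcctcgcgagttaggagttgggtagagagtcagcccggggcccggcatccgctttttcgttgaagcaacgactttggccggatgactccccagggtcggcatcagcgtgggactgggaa
POLR1B, entry 2: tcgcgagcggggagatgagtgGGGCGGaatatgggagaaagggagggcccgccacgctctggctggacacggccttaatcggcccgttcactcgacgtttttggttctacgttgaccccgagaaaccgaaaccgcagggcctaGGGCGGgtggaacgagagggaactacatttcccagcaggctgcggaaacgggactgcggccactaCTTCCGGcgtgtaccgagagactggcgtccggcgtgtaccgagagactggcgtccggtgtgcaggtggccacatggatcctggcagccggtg

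Among the other members, POLR1C held 3 ETS matches, of which neighbouring matches overlap, a GC box and a YY1 site, POLR1D held GC boxes in both of its windows, POLR1H held a CRE, and POLR1F held none of the 6 motifs. Of 34796 distinct windows of 300 bases in the same table, 7.2% held the E-box, 1.84% the CRE, 10.2% the ETS letters, 44.9% the GC box, 11.6% the TATA letters and 2.89% the YY1 letters. No motif was shared by POLR1A and POLR1G. These matches describe letters in a window and nothing was measured at them.

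The libraries held 14112299 to 24849354 estimated reads, with a median of 16305236, and a member had between 179 (POLR1H) and 5279 (POLR1A) reads in a library. Replicate 2 of the control stood apart, with 20.6% of its reads on mitochondrial genes against 8.14% to 11.3% in all other libraries. Of the markers expected to be high in the line, VIM had 2080 to 2690 TPM and CD44 472 to 750 TPM. EGFR, the other such marker, had only 17.4 to 37.8 TPM. ESR1, PGR and CDH1 did not exceed 0.285 TPM as is known of this line. EPCAM (11.4 to 22.4 TPM) and ERBB2 (14.8 to 22.9 TPM) were not absent, and their ranges overlapped that of EGFR. The haematopoietic markers PTPRC and CD3E were at or below 0.0904 TPM.

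Levels of different members were compared per length, as the deposited TPM, a share of all transcripts corrected for transcript length, summed over the transcripts of a gene. POLR1D, the small AC19 assembly subunit, was the most abundant member, with a median of 127 TPM over the 14 libraries (112 to 136). POLR1E followed with 79.1 TPM (52.3 to 90.7) and POLR1G with 48.3 TPM (38.5 to 65.8). POLR1D exceeded POLR1E, and POLR1E exceeded POLR1G, in 14 of 14 libraries, with median ratios of 1.58 and 1.56. The next members could not be ordered beyond their spread. POLR1C had a median of 45.6 TPM (25.9 to 51.6), POLR1F of 45 TPM (33 to 61.3) and POLR1H of 41.4 TPM (19.7 to 55.5). The catalytic subunits had the lowest medians over the 14 libraries, with POLR1A at 29.2 TPM (23 to 43) and POLR1B at 28.1 TPM (23.7 to 54.5). They were not the lowest in every group. In CX-5461 120 min the mean of POLR1B (48.4 TPM) lay above those of POLR1G (44.6), POLR1C (43.9) and POLR1H (42.4). In RBI2 120 min the mean of POLR1A (42.8 TPM) lay above that of POLR1H (41.4). POLR1A exceeded POLR1B in 7 of 14 libraries. The median ratio of POLR1D to POLR1B was 4.38 (2.08 to 5.47). The catalytic partners had no fixed order per length, with a median ratio of POLR1A to POLR1B of 1.02 (0.606 to 1.69), whereas POLR1E lay above POLR1G in the PAF53 and PAF49 pair and POLR1D above POLR1C in the AC40 and AC19 pair.

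**Figure D1:**
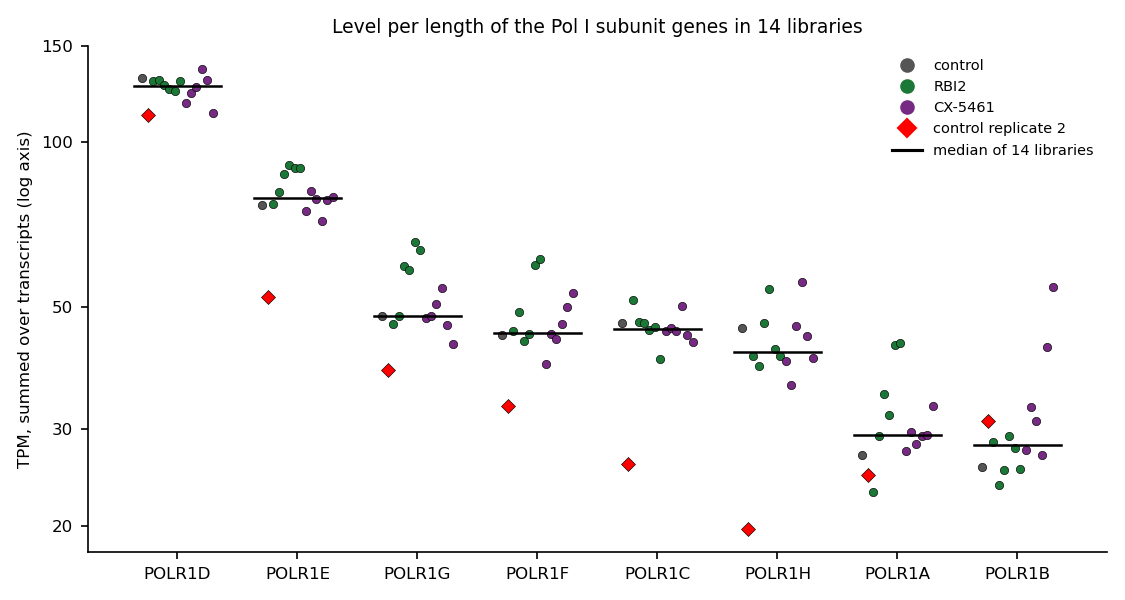
TPM of each Pol I subunit gene (log axis) in the 14 libraries, coloured by compound, with the median as a black line and control replicate 2 as a red diamond. POLR1D lay between 112 and 136 TPM and POLR1A and POLR1B had the lowest medians, and control replicate 2 was the lowest library for POLR1D, POLR1E, POLR1G, POLR1F, POLR1C and POLR1H.

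Control replicate 2 had the lowest TPM of all libraries for POLR1C, POLR1D, POLR1E, POLR1F, POLR1G and POLR1H. For POLR1H the 2 control libraries differed most, at 45.8 and 19.7 TPM. TPM is a share of all transcripts, mitochondrial ones included, so the groups were compared on read counts scaled by the trimmed mean of M-values (TMM) and given as CPM, the share of a library's reads that fall to a gene. GAPDH, the reference gene of the study, had 2910 to 3740 CPM. In bulk libraries fewer cells that express a gene and less of its RNA per cell cannot be told apart. A gene passed with a Benjamini-Hochberg adjusted p under 0.05 over all 15426 genes in edgeR's quasi-likelihood test, fitted to the 14 libraries together.

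POLR1A, which encodes the largest catalytic subunit, was highest in the RBI2 120 min libraries. Its level was 189 and 215 CPM in the control libraries. It was 201 and 255 CPM in RBI2 10 min, 236 and 233 CPM in RBI2 30 min, and 303 and 314 CPM in RBI2 120 min. In the CX-5461 libraries it was 170 and 200 CPM at 10 min, 196 and 184 CPM at 30 min, and 215 and 259 CPM at 120 min. The RBI2 120 min libraries thus lay above each of the other 12, and the CX-5461 libraries labelled 10 and 30 min lay between 170 and 200 CPM. Against the control POLR1A rose 1.53-fold in RBI2 120 min (log2 fold change 0.62 ± 0.13 SE, 95% interval 0.33 to 0.90, edgeR adjusted p = 0.0163). The other 5 groups did not pass, with log2 fold changes of 0.18 and 0.22 in RBI2 10 and 30 min and of -0.12, -0.08 and 0.24 in CX-5461 10, 30 and 120 min.

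POLR1B, which encodes the second catalytic subunit, was highest in the CX-5461 120 min libraries and did not follow POLR1A. The control libraries had 77.8 and 93.5 CPM. The RBI2 libraries had 83.3 and 76.7 CPM at 10 min, 76.9 and 83.3 CPM at 30 min, and 78.4 and 76 CPM at 120 min. The CX-5461 libraries had 81.7 and 84.6 CPM at 10 min, 87.7 and 76 CPM at 30 min, and 98.2 and 109 CPM at 120 min. The CX-5461 120 min libraries lay above all others, although the nearest was a control library. No comparison of POLR1B with the control passed. The estimates were -0.15 ± 0.11 (SE) in RBI2 120 min (edgeR adjusted p = 0.352) and 0.28 ± 0.11 in CX-5461 120 min (edgeR adjusted p = 0.35).

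Both genes of the PAF53 and PAF49 heterodimer, which takes part in initiation and elongation, were highest in RBI2 120 min. POLR1G (PAF49) had 105 and 104 CPM in the control, 104 and 100 CPM in RBI2 10 min, 117 and 110 CPM in RBI2 30 min, and 139 and 143 CPM in RBI2 120 min. Its CX-5461 libraries had 108 and 109 CPM at 10 min, 113 and 127 CPM at 30 min, and 108 and 101 CPM at 120 min. The RBI2 120 min libraries were above all others and their replicates were close together. POLR1G rose 1.35-fold in RBI2 120 min (log2 fold change 0.44 ± 0.07 SE, 95% interval 0.27 to 0.60, edgeR adjusted p = 0.00924), and the estimate for CX-5461 120 min was 0.00 (95% interval -0.16 to 0.17).

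POLR1E (PAF53) had a smaller difference of the same sign. It had 95.2 and 93 CPM in the control, 95.7 and 99.8 CPM in RBI2 10 min, 101 and 102 CPM in RBI2 30 min, and 113 CPM in both libraries of RBI2 120 min. In CX-5461 it had 95.2 and 102 CPM at 10 min, 96.5 and 94.6 CPM at 30 min, and 99.5 and 101 CPM at 120 min. Here also the RBI2 120 min libraries lay above the other 12, as for POLR1A and POLR1G. How many of all genes had this order was not counted. POLR1E rose 1.2-fold (log2 fold change 0.26 ± 0.06 SE, 95% interval 0.12 to 0.40, edgeR adjusted p = 0.026).

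The genes of the assembly subunits, which Pol I shares with Pol III, varied little between groups. POLR1D (AC19) lay between 59 and 70.9 CPM in all 14 libraries, with 66.4 and 67.7 CPM in the control and 60.5 and 61.5 CPM in RBI2 120 min. Its estimates against the control ran from -0.14 (RBI2 120 min) to 0.03 (RBI2 10 min), and none passed. POLR1C (AC40) had 43.1 and 34.2 CPM in the control and 37.3 to 47.6 CPM in the treated libraries. The control libraries of POLR1C were thus about as far apart as any treated libraries were from each other, and none of its comparisons passed.

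POLR1F, which encodes the stalk subunit RPA43, was lowest in CX-5461 10 min. It had 86.1 and 93.9 CPM in the control and 81.3 to 90.4 CPM in the RBI2 libraries. In CX-5461 it had 77.8 and 75.4 CPM at 10 min, 83.5 and 80.1 CPM at 30 min, and 88 and 89.3 CPM at 120 min. The estimate in CX-5461 10 min was -0.23 ± 0.08 (SE), with an unadjusted p of 0.0111, and it did not pass (edgeR adjusted p = 0.115).

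POLR1H, which encodes the cleavage subunit RPA12, had the fewest reads of the members, and its control libraries disagreed most. It had 24.1 and 14.3 CPM in the control. The RBI2 libraries had 19.8 to 25.4 CPM and the CX-5461 libraries 22 to 29.5 CPM, so control replicate 1 lay within the treated range and control replicate 2 below it. Against both control libraries the largest estimate was 0.51 ± 0.19 (SE) in CX-5461 30 min, which did not pass (edgeR adjusted p = 0.213). Without control replicate 1, POLR1H passed as higher in all 6 treated groups, by 0.54 to 0.94 on the log2 scale (edgeR adjusted p from 4.5e-04 to 0.0102), when 22.7% to 45.3% of all genes passed. Without control replicate 2 it passed in none, and the estimates ran from -0.23 to 0.18. A direction for POLR1H against the control was therefore set by the choice of control library, 1 of which held 20.6% mitochondrial reads. The part of that difference in the result was not tested.

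**Figure D2:**
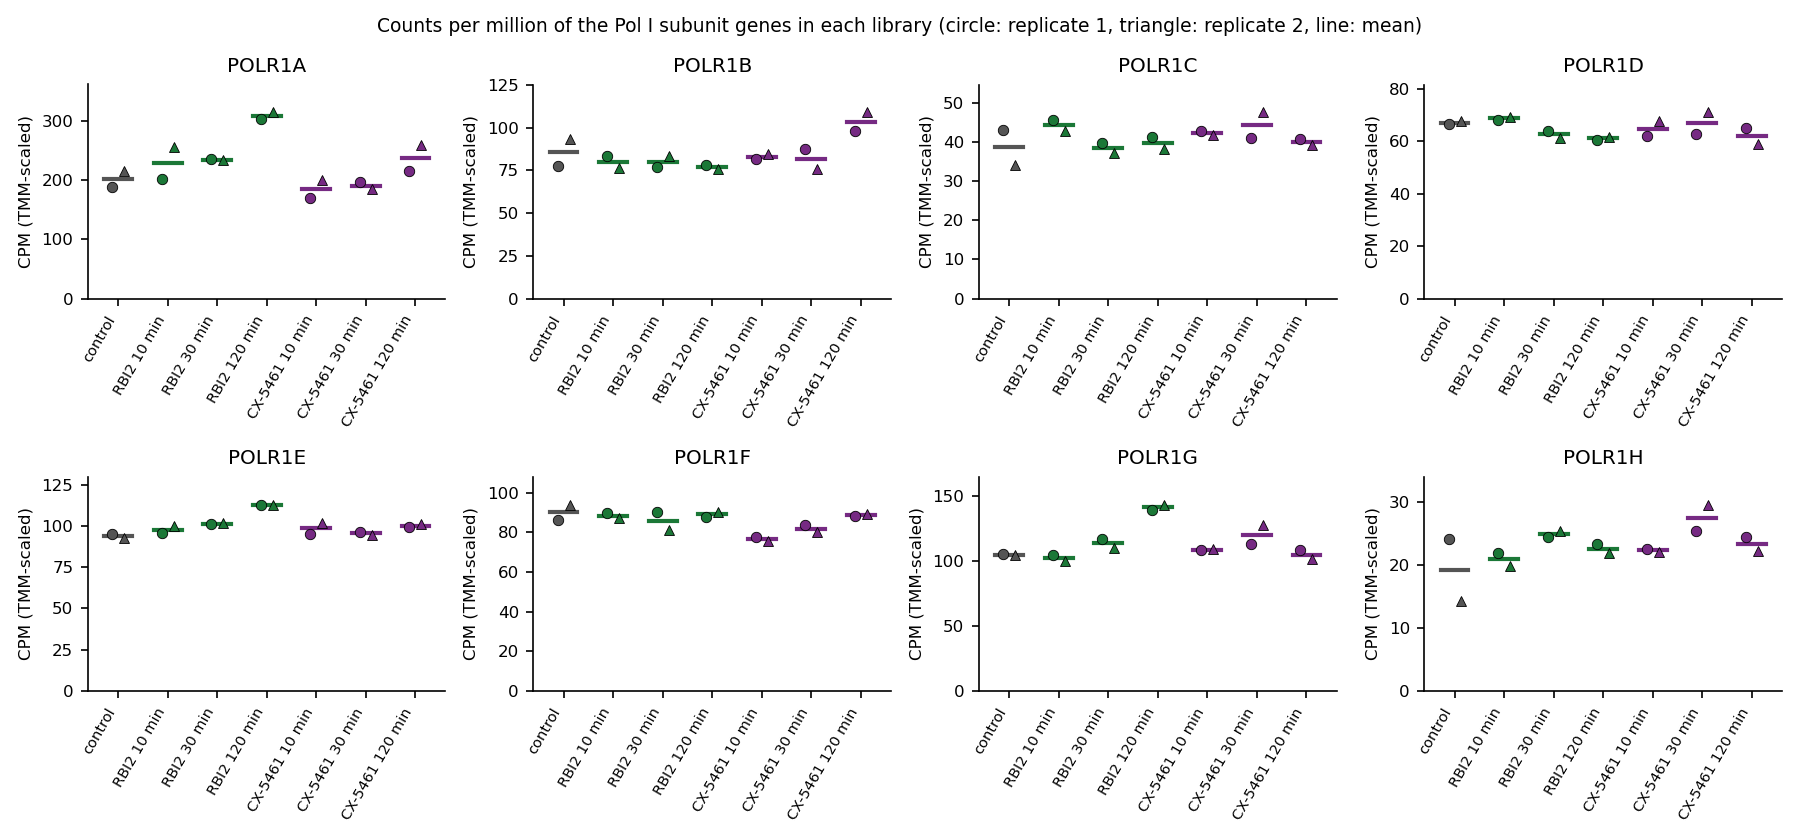
TMM-scaled CPM of the 8 genes (linear axes from 0) in each group, with circles for replicate 1, triangles for replicate 2 and a line for the mean of 2 libraries. The RBI2 120 min libraries were the highest for POLR1A, POLR1E and POLR1G, the CX-5461 120 min libraries for POLR1B, and the control libraries of POLR1H were at 24.1 and 14.3 CPM.

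Over the 6 comparisons with the control, which all share the same 2 control libraries, 3 of 48 pairs of gene and group passed, and 7 had an unadjusted p under 0.05. Of all 15426 genes, between 1916 (CX-5461 120 min) and 5533 (RBI2 120 min) had an unadjusted p under 0.05 in each comparison. The 3 pairs were those of POLR1A, POLR1E and POLR1G in RBI2 120 min. In that group 3 of 8 members passed, beside 18.0% of all genes tested, and all 3 were higher, beside 8.90% of genes that passed as higher. With the study's fold limit added (a log2 fold change of at least 1 in size), 0 of 8 members passed, beside 1.82% of genes, and the largest estimate of a member was 0.62. The median estimate of the 8 members in RBI2 120 min was 0.13, beside 0.01 over all genes.

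The other groups had no member that passed in edgeR or in DESeq2. In RBI2 10 min 0 of 8 members passed, beside 0.201% of all genes, and in RBI2 30 min 0 of 8, beside 0.0713%, and in neither was an unadjusted p under 0.05. In CX-5461 10 min 0 of 8 passed, beside 4.77% of genes, with POLR1F the only member at an unadjusted p under 0.05. In CX-5461 30 min 0 of 8 passed, beside 0% of genes, and POLR1G and POLR1H had an unadjusted p under 0.05. Over all genes in that group, 3536 had an unadjusted p under 0.05 and DESeq2 called 25. In CX-5461 120 min 0 of 8 passed, beside 0.0778%, and POLR1B had an unadjusted p under 0.05. The medians of the 8 estimates in these 5 groups ran from 0.01 to 0.07.

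**Figure D3:**
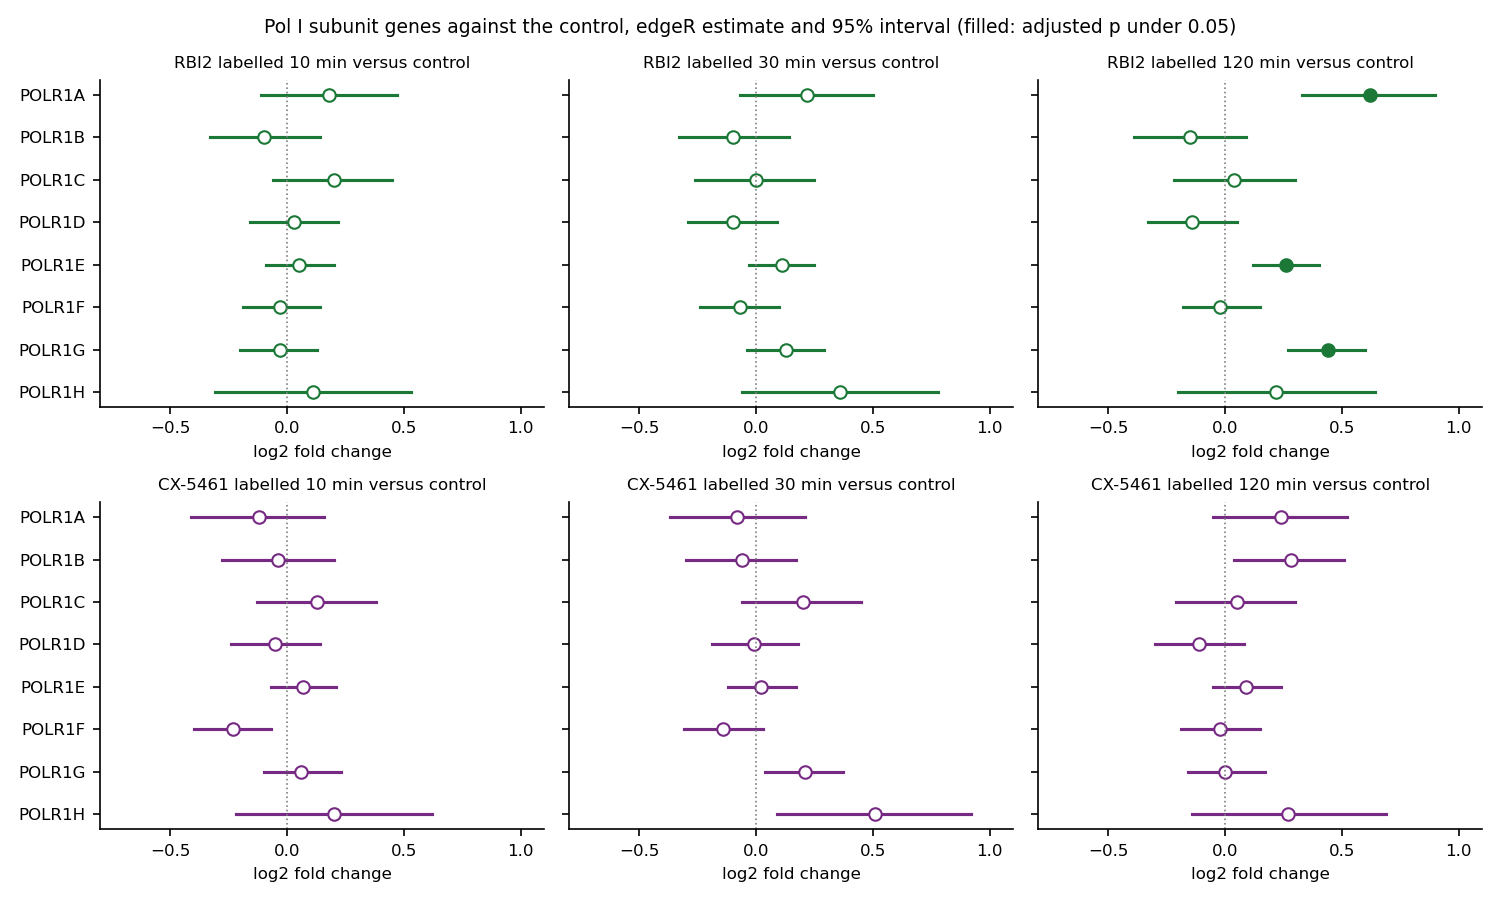
The log2 fold change of each member against the control (point) with its 95% interval (line) in the 6 treated groups. Filled points passed, and these were POLR1A (0.62), POLR1E (0.26) and POLR1G (0.44) in RBI2 120 min.

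The estimates in RBI2 120 min moved with the model. With an offset for transcript length, POLR1A (0.50), POLR1G (0.36) and POLR1E (0.28) did not pass (edgeR adjusted p = 0.0919, 0.0819 and 0.123), and 1.4% of all genes did. With an offset for the GC content and length of each gene, the estimates were 0.22 for POLR1A (edgeR adjusted p = 0.0955), 0.18 for POLR1E (edgeR adjusted p = 0.0526) and 0.15 for POLR1G (edgeR adjusted p = 0.202). POLR1A has the longest transcripts of the members (10633 bases on average, 52.3% GC) and POLR1G the highest GC content (56.1%), whereas POLR1F has the lowest (37%) and its estimate in RBI2 120 min went from -0.02 to 0.32 with the offset (edgeR adjusted p = 0.0445). A model of the 4 libraries alone gave the same estimates to 2 decimals, and POLR1A, POLR1E and POLR1G did not pass in it (edgeR adjusted p = 0.322, 0.349 and 0.322), nor did any other gene, with 2371 at an unadjusted p under 0.05. Without either RBI2 120 min library, none of them passed (edgeR adjusted p from 0.0581 to 0.11), and 0.655% of all genes did without replicate 1 and 2.16% without replicate 2. POLR1E also did not pass without control replicate 2 (edgeR adjusted p = 0.0564) or with no filter on low counts (edgeR adjusted p = 0.129), when POLR1H passed as higher in CX-5461 30 min (0.54, edgeR adjusted p = 0.00919).

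RBI2 and CX-5461 were compared directly at matched dose and label, without the control, in 24 pairs of gene and label. At 120 min 2 of 8 members passed, beside 16.1% of all genes. POLR1G was 1.35-fold higher in RBI2 than in CX-5461 (log2 difference 0.43 ± 0.07 SE, 95% interval 0.27 to 0.60, edgeR adjusted p = 0.00856), 1 of 8 members in this direction beside 5.28% of genes. POLR1B was lower in RBI2 (log2 difference -0.43 ± 0.11 SE, 95% interval -0.66 to -0.19, edgeR adjusted p = 0.0254), 1 of 8 beside 10.9%. The RBI2 and CX-5461 libraries had 139 and 143 CPM against 108 and 101 CPM for POLR1G. For POLR1B they had 78.4 and 76 CPM against 98.2 and 109 CPM. The POLR1B value rests on each of the 4 libraries. Without CX-5461 120 min replicate 2 its difference was -0.30 (edgeR adjusted p = 0.179), and without any of the other 3 the adjusted p was 0.0602 to 0.126. POLR1G did not pass without CX-5461 120 min replicate 2 or without either RBI2 120 min library (edgeR adjusted p from 0.0554 to 0.0708), nor with the offset for GC content and length and the replicate block together (0.23, edgeR adjusted p = 0.0584).

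At the labels 10 and 30 min 0 of 8 members passed in edgeR and in DESeq2, beside 3.06% of all genes at 10 min and 0.0130% at 30 min. POLR1A was at 0.30 (95% interval 0.02 to 0.59) at 10 min, 0.30 (0.01 to 0.59) at 30 min and 0.38 (0.10 to 0.67) at 120 min, each with an unadjusted p under 0.05 and none with an adjusted p under 0.05 in edgeR. DESeq2 counted 4 of 8 members at 120 min, beside 16.6% of all genes, adding POLR1A (0.41, DESeq2 adjusted p = 0.0153) and POLR1E (0.19, DESeq2 adjusted p = 0.0373). For the members that did not pass, the 95% intervals bound the difference. They were widest for POLR1H, at -0.46 to 0.36 on the log2 scale at 120 min, and that of POLR1D was -0.21 to 0.16, so differences of that size cannot be told from none at this depth and replication.

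Averaged over the 3 labels, which uses all 12 treated libraries, 1 of 8 members differed between the compounds, beside 8.59% of all genes. It was POLR1A, higher in RBI2 by 0.33 ± 0.07 (SE) on the log2 scale (95% interval 0.16 to 0.49, edgeR adjusted p = 0.0258), 1 of 8 members higher beside 6.01% of genes. In CPM the lower RBI2 library of POLR1A exceeded the higher CX-5461 library in each of the 3 labels, though only with 201 against 200 CPM at 10 min. In TPM this did not hold at 10 min, with 23 and 29.1 TPM in RBI2 against 27.4 and 29.6 TPM in CX-5461. How many of all genes had such an order was not counted. The difference did not pass without CX-5461 10 min replicate 1, CX-5461 30 min replicate 2, RBI2 30 min replicate 1 or RBI2 120 min replicate 2 (edgeR adjusted p from 0.0573 to 0.0783), and with the offset for GC content and length it was 0.05 (edgeR adjusted p = 0.427). POLR1B was at -0.17 (95% interval -0.31 to -0.03, edgeR adjusted p = 0.109), and the other 6 members lay between -0.10 and 0.09.

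**Figure D4:**
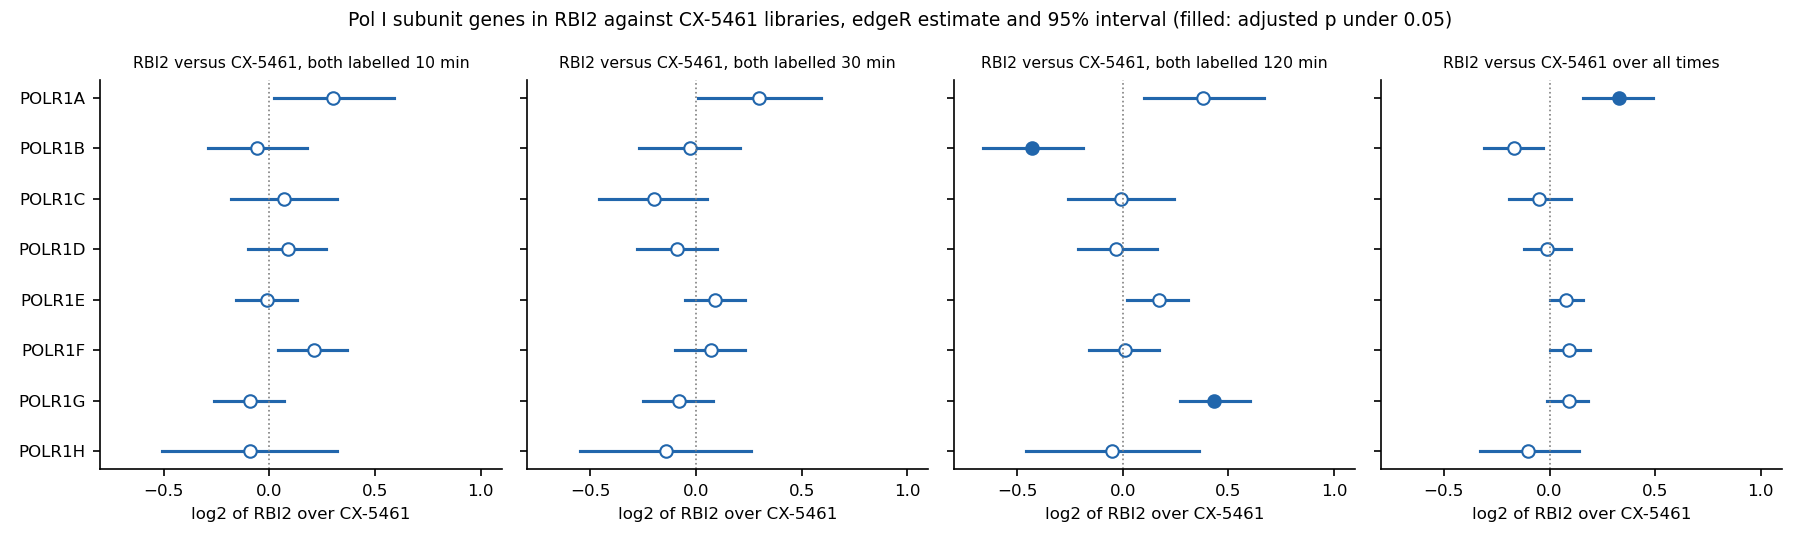
The log2 ratio of RBI2 to CX-5461 (point) with its 95% interval (line) for each member at the 3 labels and averaged over them. Filled points passed, and these were POLR1G (0.43) and POLR1B (-0.43) at 120 min and POLR1A (0.33) over all times.

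Among all 7 groups, 2 of 8 members differed, beside 11.0% of all genes, and they were POLR1A (edgeR adjusted p = 0.0304) and POLR1G (edgeR adjusted p = 0.0185). Without the control group, among the 6 treated groups, POLR1A (edgeR adjusted p = 0.0285) and POLR1G (edgeR adjusted p = 0.017) made 2 of 8 again, beside 10.4% of genes. Among the 3 labels of RBI2, 1 of 8 passed, beside 1.67% of genes, and it was POLR1G (edgeR adjusted p = 0.0312). That call was lost in 11 of 21 alternatives, among them the removal of any RBI2 library or of either CX-5461 10 min library (edgeR adjusted p from 0.0753 to 0.218), the offset for transcript length (0.174) and the replicate block (0.0516). Among the 3 labels of CX-5461, 0 of 8 passed in edgeR, beside 2.87% of genes, and 0 of 8 in DESeq2, beside 4.32%. In edgeR 3 of the 8 had an unadjusted p under 0.05 there, beside 3349 of all 15426 genes. The difference between the compounds depended on the label for 1 of 8 members, beside 1.70% of genes, and that was POLR1G again (edgeR adjusted p = 0.0426). It was lost in 15 of 21 alternatives, among them both offsets and the replicate block (edgeR adjusted p from 0.0745 to 0.195). Without RBI2 120 min replicate 1, neither POLR1A nor POLR1G passed among the 7 groups (edgeR adjusted p = 0.113 and 0.106). Neither passed there with the offset for transcript length (edgeR adjusted p = 0.0907 and 0.065) or with the offset for GC content and length (0.41 and 0.0621), under which POLR1B was the member that passed (edgeR adjusted p = 0.0196). Over 21 alternatives the 7-group call was lost in 8 for POLR1A and in 7 for POLR1G.

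**Figure D5:**
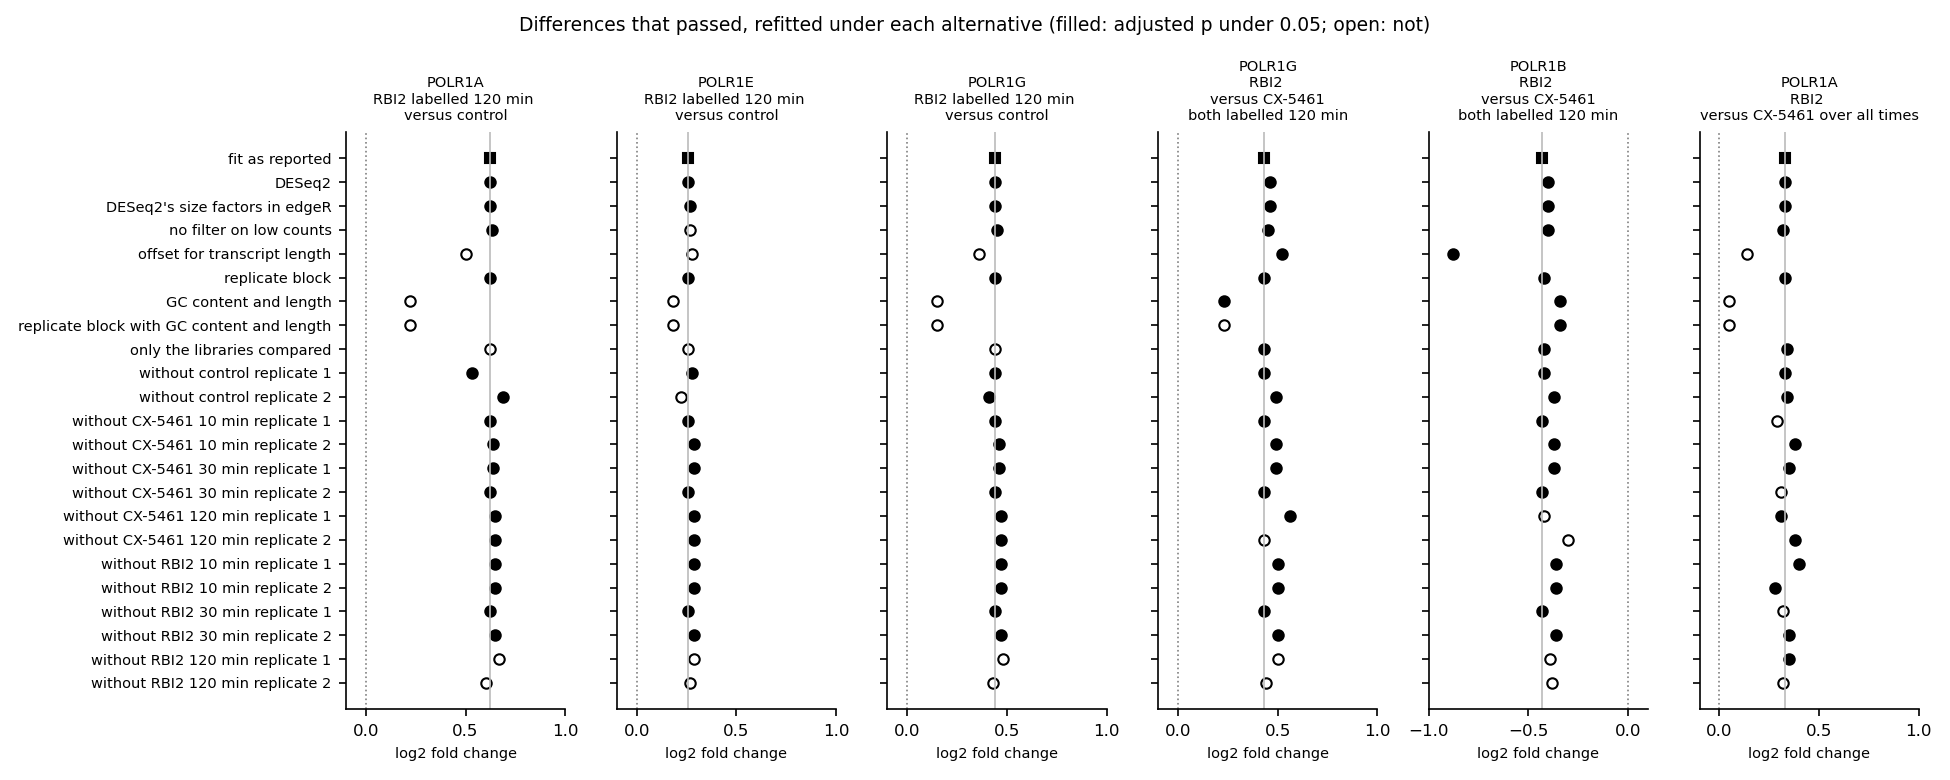
The log2 fold change of the 6 differences that passed, as reported (square) and under each alternative (circles), filled where the adjusted p was under 0.05. The estimates kept their sign throughout, and those of POLR1A in RBI2 120 min ran from 0.22 with the offset for GC content and length to 0.69 without control replicate 2.

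The members' transcripts were fitted in the same way, 42 of 80 having passed the filter. Of 252 pairs of transcript and treated group, 0 passed in edgeR, beside 0.148% of all pairs tested, with 26 at an unadjusted p under 0.05, beside 7.46% of all pairs, and 10 in DESeq2, beside 2.95%. The smallest adjusted p, 0.178 in edgeR, was that of POLR1A-201 in RBI2 120 min, with a log2 fold change of 0.37. The canonical POLR1A-201 held 69.9% of the gene's reads and POLR1A-203, which also encodes protein, held 29.6%. The share of POLR1A-203 was 24.6% and 32.6% in the control, 39.7% and 40.4% in RBI2 120 min, and 31.3% and 40.7% in CX-5461 120 min, so the highest share was in a CX-5461 library. POLR1E and POLR1F were nearly single-transcript genes, with POLR1E-202 at 99.8% and POLR1F-201 at 98.7% of their reads. POLR1G-201 held 73.9% and POLR1G-202 23%.

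Other members were split over several transcripts. POLR1B reads fell to POLR1B-204 (48.4%), POLR1B-201 (23.6%) and POLR1B-217 (19.3%), and POLR1C reads to POLR1C-210 (77.9%), while retained-intron transcripts held a median of 9.61% of POLR1C reads (3.03% to 22.2%). POLR1D reads fell to POLR1D-201 (58.4%), POLR1D-203 (11.4%) and POLR1D-202 (11.3%). POLR1D-203 was listed at 0 reads in both control libraries and in CX-5461 30 min replicate 1 and at 86 to 213 reads in the other 11 libraries, and POLR1D-202 was listed at 0 in 4 treated libraries. POLR1H reads fell to POLR1H-201 (48.7%), POLR1H-205 (23.3%, without a defined coding sequence), POLR1H-203 (13.6%) and POLR1H-202 (10.2%). Such zeros can be a failed split between transcripts that share sequence, so the fitted fold changes of these transcripts, which enter the counts of pairs above, are not given as sizes.

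The members were set beside the other genes of the transcription machinery. The 5 subunits that Pol I shares with Pol II and Pol III are POLR2E, POLR2F, POLR2H, POLR2K and POLR2L. Of these, 0 passed in any comparison in the main edgeR test. Beside 1916 to 5533 of all 15426 genes in each comparison with the control, 10 of their 30 pairs had an unadjusted p under 0.05. DESeq2 called 2 of them, POLR2K as lower in RBI2 30 min and in RBI2 120 min, beside 3.66% and 19.7% of all genes in DESeq2. In edgeR with the offset for GC content and length, 2 of the 30 pairs passed. POLR2L was lower in RBI2 120 min (-0.27, edgeR adjusted p = 0.0435), beside 10.5% of all genes. POLR2H was higher in CX-5461 10 min (0.28, edgeR adjusted p = 0.0399), beside 8.22% of all genes. The median estimate of the 5 in RBI2 120 min was 0.09 in the main test. Of 8 Pol I factors, which recruit or release the enzyme at ribosomal DNA, 2 passed in RBI2 120 min and both fell, a share near the 18.0% of all genes that passed there. They were TAF1A, part of the promoter selectivity factor (log2 fold change -0.41, edgeR adjusted p = 0.0226), and RRN3, the factor that binds the RPA43 stalk (-0.47, edgeR adjusted p = 0.0322), the opposite sign to POLR1A, POLR1E and POLR1G. With the offset for GC content and length, neither passed (edgeR adjusted p = 0.588 for TAF1A and 0.0745 for RRN3). TAF1D, another part of the selectivity factor, passed as higher in RBI2 120 min with that offset (0.38, edgeR adjusted p = 0.00608), beside 10.5% of all genes. Its estimate there was 0.02 in the main test. RRN3 had 44.7 and 52.6 CPM in the control and 36.6 and 33.3 CPM in RBI2 120 min. TAF1D fell in CX-5461 10 min (-1.03, edgeR adjusted p = 9.9e-06), a group where no member passed. It had 123 and 119 CPM there against 238 and 256 CPM in the control.

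Of 10 subunits particular to Pol III that were analysed here, 4 passed in RBI2 120 min, beside the 18.0% of all genes. POLR3A, the largest subunit and the counterpart of POLR1A, rose by 0.68 on the log2 scale (edgeR adjusted p = 0.0113), and POLR3D rose (0.33), whereas POLR3B, the counterpart of POLR1B, fell (-0.58, edgeR adjusted p = 0.032) and POLR3F fell (-0.39). Of the 7 subunits particular to Pol II, 1 passed, again a share near the 18.0% of all genes. It was POLR2B, the counterpart of POLR1B, which fell (-0.49, edgeR adjusted p = 0.0181). In the direct comparison at 120 min, in which 16.1% of all genes passed, 4 of 8 Pol I factors passed, with RRN3 (-0.66) and TAF1B (-0.39) lower in RBI2 and TAF1D (0.26) and UBTF (0.22) higher. There 1 of 10 Pol III subunits (POLR3B, -0.67) and 1 of 7 Pol II subunits (POLR2B, -0.64) passed, both lower in RBI2, beside 10.9% of genes that passed as lower. RRN3 (-0.44, edgeR adjusted p = 0.0054) and TAF1D (0.57, edgeR adjusted p = 0.00106) still passed there with the offset for GC content and length. So did POLR3B (-0.54, edgeR adjusted p = 0.00317) and POLR2B (-0.41, edgeR adjusted p = 0.00242), beside 17.4% of all genes. TAF1B and UBTF were not followed under that offset. With the offset for GC content and length, POLR3A (0.49), POLR3B (-0.45) and POLR2B (-0.26) still passed against the control in edgeR, whereas POLR3D and POLR3F did not. The list medians in RBI2 120 min against the control were -0.09 for the Pol I factors, 0.02 for the Pol III subunits and 0.16 for the Pol II subunits, beside 0.01 over all genes.

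Across the 14 libraries, log2 CPM of POLR1A and POLR1E had the highest Pearson correlation of any member pair (r = 0.86), followed by POLR1E with POLR1G (0.68) and POLR1C with POLR1H (0.60). POLR1B was not part of that set, with r = -0.50 to POLR1G, and the lowest value was that of POLR1D and POLR1E (-0.56). Outside the members, the gene most like POLR1A was MYH9 (r = 0.98), that most like POLR1B was ARFGEF2 (0.97), and that most like POLR1C was CENPW (0.92). PLEK2 (0.84) was most like POLR1D, NOTCH1 (0.96) most like POLR1E, FBXW7 (0.94) most like POLR1F, FMNL1 (0.94) most like POLR1G and PPP1R35 (0.97) most like POLR1H. These values describe 14 libraries that share groups, scaling and gene properties such as length and GC content, and each of those outside the members is the highest over all genes tested.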

How the data were processed

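MDA-MB-231 mRNA libraries (14, in 7 groups of 2) were prepared by the authors with a stranded poly(A) kit. The authors removed reads aligned to ribosomal DNA and quantified the rest against GRCh38 transcripts. The submitters' processing notes name STAR 2.7.6a, SAMtools 1.11, bedtools 2.29.2, Salmon 1.3.0 and DESeq2 1.28.1. The authors thus deposited an estimated count and a TPM for each transcript, made by Salmon, with lengths and effective lengths.

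Here 225662 of 228754 transcripts were matched to GENCODE 44 (the others held 1.03% to 1.13% of reads), whose estimates were added up for each gene, rounded to whole numbers and filtered with filterByExpr (minimum count 10). The main test was edgeR 4.0.16 (R 4.3.3), quasi-likelihood, TMM scaling, 7 groups, no covariates, with 95% intervals. A gene passed with a Benjamini-Hochberg adjusted p under 0.05 over all 15426 genes. Transcripts (54804) were fitted likewise. The main edgeR test of genes was checked on simulated counts. No such check is given here for DESeq2, the offsets, the replicate block or the transcript fits. The coefficient of variation was 12.3% for genes and 96.3% for transcripts, which limits the latter most.

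All 8 members are named, as are their transcripts with at least 10% of the reads, genes of 4 other lists that passed against the control (at most 4 per comparison and list), and, for each member, the most correlated gene. The members, lists and rules were chosen with earlier results of these data known. Alternatives were DESeq2 1.42.0, its size factors, no filter, offsets for transcript length or for GC content and length (5 spline degrees of freedom), a replicate block, only the libraries compared, each library left out, unadjusted p, and a log2 fold limit of 1. A design with 2 libraries per group leaves 1 lone sample when a library is left out, which is then assumed to vary like the other groups. A gene of the Pol III list is not reported here and was left out of its counts.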

Additional observations from a re-analysis of the deposited data

Results flagged for a closer look

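The difference between RBI2 and CX-5461 depended on the label for POLR1G, the PAF49 subunit gene, by a test of the difference itself (edgeR adjusted p = 0.0426 over all genes). RBI2 minus CX-5461 was -0.09 at 10 min, -0.08 at 30 min and 0.43 at 120 min on the log2 scale. The test used 2 libraries per group. Leaving out a library moved the adjusted p between 0.00909 and 0.194, and it stayed under 0.05 only without a control library or without CX-5461 30 min replicate 1. Of 21 alternatives 15 lost the call, among them the offset for transcript length (edgeR adjusted p = 0.195), the offset for GC content and length (0.0805), that offset with the replicate block (0.107) and the block alone (0.0745).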

How the results depend on the processing

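Leaving out a library or changing the model moved the counts. Against the control, 3 of 48 pairs passed as reported, 0 with the transcript-length offset, 1 with the offset for GC content and length, 1 with that offset and the replicate block, 0 with only the libraries compared, 7 with unadjusted p, 0 with the fold limit, and 0 to 13 without 1 library, the 13 without control replicate 1. Between the compounds at matched labels, 2 of 24 passed as reported, 4 in DESeq2, 7 with unadjusted p, 0 with the fold limit, and 0 to 4 without 1 library. Among the 7 groups, 2 of 8 genes passed as reported, 4 in DESeq2, 0 with the length offset, 1 with the GC content and length offset, 1 with that offset and the block, 4 with unadjusted p, and 0 to 6 without 1 library. Among the 6 treated groups, 2 passed as reported, 1 with the GC content and length offset and the block, 4 with unadjusted p, and 0 to 4 without 1 library. Over all times, 1 passed as reported, 0 with the length offset, 2 with the GC content and length offset, 2 with that offset and the block, 2 with unadjusted p, 0 with the fold limit, and 0 to 2 without 1 library. Of 252 transcript pairs, 0 passed as reported, 10 in DESeq2, 26 with unadjusted p, and 0 to 16 without 1 library, beside 0.148%, 2.95%, 7.46% and 0.0876% to 8.97% of all pairs. The 16 and the 8.97% were without control replicate 1, and 6 and 5 passed without CX-5461 30 min replicate 1 and replicate 2, beside 0.169% and 0.137%, all of them POLR1D-203, as were 6 of the 10 in DESeq2. POLR1F in RBI2 120 min turned from -0.02 to 0.32 with the GC content and length offset (edgeR adjusted p = 0.0445) and to 0.32 with the block added (edgeR adjusted p = 0.0407). The genes changed as well as the counts. With the GC content and length offset, with or without the block, POLR1F was the 1 gene that passed against the control, POLR1B the 1 among the 7 groups, and POLR1B and POLR1F the 2 over all times, so none of these was a reported call. Among the 6 treated groups POLR1B was the 1 gene with that offset and the block, and POLR1F and POLR1G the 2 with the length offset. Between the compounds POLR1B and POLR1F were the 2 with the GC content and length offset and the block. With no filter on low counts, the 3 pairs against the control were POLR1A and POLR1G in RBI2 120 min and POLR1H in CX-5461 30 min. The share of all genes that passed moved too. In RBI2 120 min it was 18% as reported, 1.4% with the length offset, 10.5% with the GC content and length offset and 45.3% without control replicate 1. Among the 7 groups it was 11%, 23.8% in DESeq2, 3.13% with the length offset, 19.4% with the GC content and length offset and 55.3% without control replicate 1, when 6 of 8 members passed. Over all times it was 8.59%, 6.02% with the length offset and 21.4% with the GC content and length offset, near the 2 of 8 there. Between the compounds at 120 min the share was 16.1% as reported and 16.6% in DESeq2. It was 6.56% with the length offset and 17.4% with the GC content and length offset. Among the 6 treated groups it was 10.4%, 19.1%, 3.78% and 19.9% in the same order. In edgeR, 2189, 1202 and 4874 of 15426 genes had an unadjusted p under 0.05 between the compounds at 10, 30 and 120 min. So did 4739 among the 6 treated groups, 5275 among the 7 groups and 4118 over all times. The cause of these moves was not tested.

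Equal replicate numbers did not pair the samples. The correlation of their deviations ran from -0.179 to 0.18 over 21 pairs of groups, with 3 over 0.1. With the replicate block alone, the counts were 3 of 48, 3 of 24, 2 of 8, 2 of 8, 1 of 8 and 0 transcript pairs in the same order, and POLR1G no longer passed among the labels of RBI2 (edgeR adjusted p = 0.0516) or in its dependence on the label (edgeR adjusted p = 0.0745). Of the 6 differences between groups that passed, those of POLR1A and POLR1G in RBI2 120 min each kept their side of the threshold in 16 of 22 alternatives, POLR1E in 14, POLR1G and POLR1B between the compounds in 18 each and POLR1A over all times in 15, and none changed sign. The mean TPM of each member moved by less than its spread in every alternative, and the order of POLR1A and POLR1B was not fixed. Depth was at least 179 reads per member and library and replication was 2 libraries a group.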
